A study of Mus musculus with 80 samples.

Results

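Of the 22556 genes in the expression tables of this study, 4 are described here: A930001C03Rik, Svop, Enpp2 and Dnah8. They were picked because their chromatin-associated RNA was among the most changed when ZFC3H1 was degraded, so their values in the ZFC3H1 line are a description and carry no test. The question is how these genes behaved when ZCCHC8, METTL3 or YTHDC1 was degraded instead, with and without induction of Xist.

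Chromatin-associated RNA (ChrRNA), which is recovered with the chromatin pellet and is rich in unspliced and retained transcripts, was sequenced from mouse embryonic stem (mES) cells in 80 libraries. All cells derive from a Cast x 129S hybrid and carry a doxycycline (Dox) inducible promoter at Xist on 1 X chromosome. This is the Cast X in the METTL3, ZFC3H1 and transgene lines, and in the YTHDC1 and ZCCHC8 lines the 129S X, where Xist also carries Bgl stem loops. In a degron line the endogenous protein is fused to FKBP12 F36V, and the small molecule dTAG-13 (dTAG) directs the fusion protein to degradation. The degron lines were ZFC3H1 (clones 8H and 11A), ZCCHC8 (clones Z4F and Z12H), METTL3 (clones G4 and H1 tagged at the N terminus, C3 and H5 at the C terminus) and YTHDC1 (clones Y9F and Y12H, sequenced in experiments 1 and 2). The transgene lines are derivatives of METTL3 clone H5 with GFP-METTL3 at Rosa26, either wild type (WT) or with the D395A change in the catalytic site. There was 1 WT and 1 D395A clone with both X chromosomes (XX) and 1 of each labelled XiO, in which the active X was not detected, and each clone was sequenced in 2 experiments. Every clone and experiment gave 4 libraries: untreated, dTAG, Dox for 24 h, and dTAG with Dox for 24 h after 2 h of dTAG alone. The length of dTAG treatment without Dox is 26 h in the sample titles but 2 h in another label field, and the 26 h of the titles is used here. Replicates are separate clones in the degron lines and repeated experiments on 1 clone in the transgene lines, where p-values measure only the spread between experiments.

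ZFC3H1 is the zinc finger scaffold of PAXT, which connects the nuclear RNA exosome to polyadenylated RNA that lingers in the nucleus. ZCCHC8 is the scaffold of NEXT, which brings the same exosome to short, mostly unadenylated RNA such as promoter upstream transcripts and enhancer RNA. METTL3 writes N6-methyladenosine (m6A) on nascent RNA, and YTHDC1 is the nuclear protein that reads it. Of the genes described, A930001C03Rik is a noncoding RNA gene. Svop encodes a transporter-like protein of synaptic vesicles related to SV2. Enpp2 encodes autotaxin, the secreted enzyme that makes lysophosphatidic acid. Dnah8 encodes a heavy chain of the axonemal dynein of sperm flagella.

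Levels are CPM, read counts scaled to library size by the authors, counted on the sense strand over whole transcript spans, introns included. The recovered depth was 8.58 to 34.4 M reads per library (M, 1000000 reads; median 22.5 M), and 15.7 to 22.8 M in the ZFC3H1 line. A single read was worth 0.0291 to 0.117 CPM, so that all 4 genes were far above the level of single reads. In the check of the cell type, the summed level of 9 embryonic stem cell markers was 928 to 2395 CPM and Sox2 was listed at 0 in every library. Because dTAG acts on the protein, the RNA of the targeted gene does not check the labels. In the ZFC3H1 line Zfc3h1 RNA was at 250.1 to 294 CPM without dTAG and 317 to 353 CPM with it. Xist RNA was at 1.22 to 738 CPM without Dox and at 1383 to 8948 CPM with Dox. The YTHDC1 columns have the same names in both tables that hold them, and the table named as the repeat was taken as experiment 2. In bulk libraries, fewer cells of a type and less RNA per cell cannot be told apart.

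In mm10 coordinates of the tables, A930001C03Rik spans chr19:4439323-4448325 on the plus strand (9003 bases), Svop chr5:114026913-114091380 on the minus strand (64468 bases), Enpp2 chr15:54838679-54920146 on the minus strand (81468 bases) and Dnah8 chr17:30626936-30875264 on the plus strand (248329 bases). In the mm10 GENCODE annotation A930001C03Rik is a processed transcript and the other genes are protein coding. Exons take up 26.6% of the GENCODE span of A930001C03Rik, 7.05% of Svop, 5.07% of Enpp2 and 10.6% of Dnah8, so most of each counted span is intron. Both plus-strand genes start beside a gene on the opposite strand. Rhod shares 102 bases with the start of A930001C03Rik, and 1700097N02Rik, annotated as a bidirectional promoter lncRNA, starts 30 bases upstream of Dnah8 on the opposite strand. The promoter windows of A930001C03Rik and Dnah8 are shown for these start regions. The Dnah8 window holds the divergent start of 1700097N02Rik, whereas the start of Rhod lies beyond the A930001C03Rik window. Each has 300 bases, taken from RefSeq on GRCm38.p6 (plus strand, 5′ to 3′), at chr19:4439073-4439372 and chr17:30626686-30626985, and capitals mark the first 50 transcribed bases.
A930001C03Rik: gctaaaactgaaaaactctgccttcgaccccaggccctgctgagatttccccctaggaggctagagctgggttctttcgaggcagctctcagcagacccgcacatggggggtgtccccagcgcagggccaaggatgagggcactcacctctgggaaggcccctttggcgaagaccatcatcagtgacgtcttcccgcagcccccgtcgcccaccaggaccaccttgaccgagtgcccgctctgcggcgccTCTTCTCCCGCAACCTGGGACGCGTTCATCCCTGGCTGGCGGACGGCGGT
Dnah8: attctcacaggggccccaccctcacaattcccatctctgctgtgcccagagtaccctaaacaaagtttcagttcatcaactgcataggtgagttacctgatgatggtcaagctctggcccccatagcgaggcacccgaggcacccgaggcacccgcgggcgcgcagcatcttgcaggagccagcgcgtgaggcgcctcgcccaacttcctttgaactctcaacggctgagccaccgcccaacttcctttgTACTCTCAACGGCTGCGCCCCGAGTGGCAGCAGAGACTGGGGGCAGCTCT

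Both windows were rich in G and C. The A930001C03Rik window has 64.3% G or C and 19 CG dinucleotides, and the Dnah8 window has 60.3% and 16, against medians of 52.7% and 7 over 32851 promoter windows of this length. A second RefSeq start of A930001C03Rik has its window at chr19:4439309-4439608, with 77.0% G or C and 37 CG dinucleotides. On both strands the letters GGGCGG, present in 35.7% of all windows, were found 1 time for Dnah8, 5 times in the second A930001C03Rik window and not in the first. TATAAA, present in 13.6% of windows, and CCAAT, present in 37.4%, were found in none of the 3.

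All 4 genes passed the filter on low values in each of the 6 tables. Over the 80 libraries A930001C03Rik ranged from 2.82 to 27.3 CPM (median 10.6), Svop from 9.25 to 122 CPM (median 32.5), Enpp2 from 2.04 to 75.4 CPM (median 13.0) and Dnah8 from 9.04 to 362 CPM (median 134). Per kilobase of counted span the median level was 1.18 CPM for A930001C03Rik, 0.541 for Dnah8, 0.504 for Svop and 0.160 for Enpp2, so the noncoding gene was the highest per length and Enpp2 the lowest. By untreated mean, A930001C03Rik ran from 5.74 CPM in the ZCCHC8 line to 15.7 CPM in D395A XiO. Neighbours in that order overlapped, except at the step from YTHDC1 experiment 1 to ZFC3H1. Svop ran from 10.3 CPM in YTHDC1 experiment 1 to 72.7 CPM in D395A XiO, with gaps below WT XiO and below D395A XiO. Tables were scaled separately, so these orders are descriptive.

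**Figure D1:**
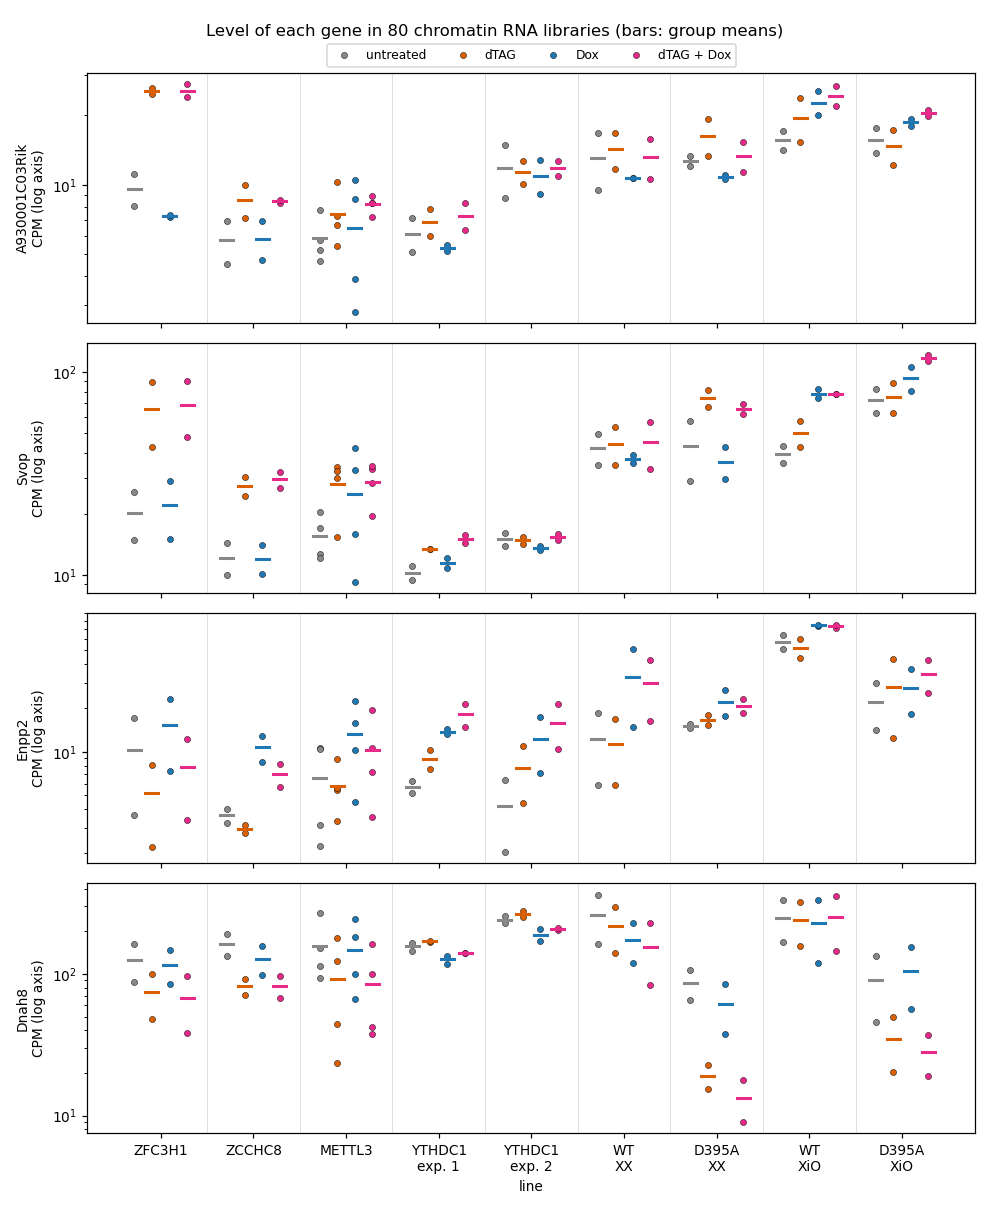
CPM (log axis) of each of the 4 genes in all 80 libraries by line and treatment; points are libraries and bars are group means. In the ZFC3H1 line A930001C03Rik and Svop are higher with dTAG, and Dnah8 is lowest in the D395A XX line with dTAG, at 9.04 to 22.7 CPM.

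In the ZFC3H1 line, A930001C03Rik and Svop were higher with dTAG, and Enpp2 and Dnah8 were lower. A930001C03Rik was at 11.1 CPM untreated and 26.2 CPM with dTAG in clone 8H, and at 8.10 and 24.8 CPM in clone 11A. Under Dox it was at 7.24 CPM without dTAG and 24.0 CPM with dTAG in clone 8H, and at 7.42 and 27.3 CPM in clone 11A. The clones had like levels, and the libraries with and without dTAG did not overlap. The ratio of means was 2.65 without Dox and 3.50 with Dox. Svop was at 25.6 and 89.0 CPM without and with dTAG in clone 8H and at 14.9 and 42.6 CPM in clone 11A. In the presence of Dox it was at 29.0 and 90.4 CPM in clone 8H and at 15.1 and 47.7 CPM in clone 11A. Clone 8H held more Svop than clone 11A under each treatment, and again the libraries with and without dTAG did not overlap. The ratio of means was 3.25 without and 3.13 with Dox.

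Enpp2 was at 17.0 CPM untreated and 8.10 CPM with dTAG in clone 8H, and at 3.63 and 2.21 CPM in clone 11A. With Dox it was at 23.3 and 12.2 CPM in clone 8H and at 7.38 and 3.36 CPM in clone 11A. The clones differed so much that the groups overlapped, while each clone held less Enpp2 with dTAG than without. Dnah8 was at 162 and 101 CPM without and with dTAG in clone 8H and at 88.0 and 47.8 CPM in clone 11A. Under Dox it was at 148 and 97.0 CPM in clone 8H and at 84.8 and 38.4 CPM in clone 11A. Dnah8 too was lower in each clone with overlap between clones. With dTAG the means were 2.00-fold lower without and 1.97-fold lower with Dox for Enpp2, and 1.69-fold and 1.72-fold lower for Dnah8.

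On the log2(CPM + 1) scale, which understates changes of low genes, the ZFC3H1 values without and with Dox were 1.33 and 1.68 for A930001C03Rik, 1.61 and 1.60 for Svop, -0.76 and -0.91 for Enpp2 and -0.77 and -0.87 for Dnah8. Among 16605 genes, Svop ranked 2 from the top without Dox and 3 with Dox, and A930001C03Rik ranked 8 and 2. Enpp2 ranked 17 from the bottom without and 4 with Dox, and Dnah8 12 and 6. These are the contrasts that chose the genes, and nothing is read from the background, in which 1.73% of genes without Dox and 2.55% with Dox passed an adjusted p of 0.05 (limma).

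In the ZCCHC8 line Svop rose and Dnah8 fell with dTAG. Svop was at 14.3 CPM untreated and 30.4 CPM with dTAG in clone Z4F, and at 9.99 and 24.5 CPM in clone Z12H. In the presence of Dox it was at 14.0 and 26.8 CPM in Z4F and at 10.0 and 32.3 CPM in Z12H. The libraries with dTAG were all above those without. In log2(CPM + 1), Svop rose by 1.12 ± 0.14 (SE; limma adjusted p = 1.25e-05, n = 2 clones) without Dox and by 1.24 ± 0.14 (limma adjusted p = 3.24e-06) with Dox. Dnah8 was at 193 and 92.3 CPM without and with dTAG in Z4F and at 134 and 71.2 CPM in Z12H. With Dox it was at 157 and 96.4 CPM in Z4F and at 98.7 and 67.9 CPM in Z12H. The libraries with dTAG lay below those without, in the presence of Dox by a narrow margin. Dnah8 fell by 0.98 ± 0.07 on the log2 scale (limma adjusted p = 2.86e-08) without Dox and by 0.62 ± 0.07 (limma adjusted p = 3.64e-06) with Dox.

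A930001C03Rik and Enpp2 moved less in this line. A930001C03Rik was at 6.97 and 9.99 CPM without and with dTAG in Z4F and at 4.51 and 7.18 CPM in Z12H. Under Dox it was at 6.98 and 8.37 CPM in Z4F and at 4.71 and 8.59 CPM in Z12H. Values with dTAG were above those without, by a narrow margin when Dox was absent. It rose by 0.52 ± 0.15 (limma adjusted p = 0.0138) without Dox and by 0.49 ± 0.15 (limma adjusted p = 0.016) with Dox. Without clone Z12H the change with Dox was 0.23 (limma adjusted p = 0.425), and without Dox the call was lost when either clone was left out (limma adjusted p = 0.0593 and 0.108). With a clone left out, an arm of the ZCCHC8 or YTHDC1 experiment 1 fit is 1 library, whose spread is assumed to be like that of the other line in their shared table. Enpp2 was at 3.25 and 3.13 CPM without and with dTAG in Z4F and at 4.03 and 2.74 CPM in Z12H. In the presence of Dox it was at 12.9 and 8.29 CPM in Z4F and at 8.53 and 5.68 CPM in Z12H. Enpp2 was thus lower with dTAG in both clones with Dox, where its level was higher to begin with. Without Dox it was lower in Z12H and hardly changed in Z4F. It fell by 0.55 ± 0.16 with Dox (limma adjusted p = 0.0122), and the change without Dox was -0.23 ± 0.16 (limma adjusted p = 0.276). The effect with Dox minus that without was -0.31 ± 0.23 and did not pass the test (limma adjusted p = 0.701).

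In all, 3 of the 4 genes were called without Dox in the ZCCHC8 line, where 33.2% of 17351 genes were, and 4 of 4 with Dox, where 38.3% were. Against so broad a response the rank says more. Svop ranked 328 from the top without Dox and 297 with Dox, and Dnah8 3 and 132 from the bottom. A930001C03Rik ranked 1885 and 2578 from the top, and Enpp2 2227 and 207 from the bottom. A930001C03Rik thus stood far from the top of all genes in the ZCCHC8 line. Its place near the top in the ZFC3H1 line comes with the choice of the genes. The difference between these lines, whose tables were scaled separately, was not tested.

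In the METTL3 line Dnah8 fell without Dox, and the other genes did not pass the test. Dnah8 was at 271, 114, 94.2 and 154 CPM untreated and at 179, 124, 23.4 and 44.2 CPM with dTAG in clones G4, H1, C3 and H5. With Dox it was at 246, 181, 66.5 and 99.3 CPM without dTAG and at 162, 99.9, 37.7 and 42.0 CPM with dTAG in the same clones. Clone H1 without Dox was the exception, with slightly more Dnah8 after dTAG, and the groups overlapped because the clones started from unlike levels. Without Dox, Dnah8 changed by -1.05 ± 0.26 (limma adjusted p = 0.0153, n = 4 clones), rank 35 from the bottom of 16638 genes. The call was lost when clone G4 (adjusted p = 0.0583), C3 (adjusted p = 0.0761) or H5 (adjusted p = 0.12) was left out of the limma fit. With Dox it changed by -0.87 ± 0.26 (limma adjusted p = 0.0563), rank 21 from the bottom, and by -1.12 after median-ratio scaling (limma adjusted p = 0.0244). Median-ratio scaling matters here because the median gene stood at 0.18 without and 0.19 with Dox in the CPM as deposited and at 0.03 in both after it.

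Svop was at 16.9, 12.6, 12.2 and 20.4 CPM untreated and 30.2, 33.9, 15.3 and 32.6 CPM with dTAG in METTL3 clones G4, H1, C3 and H5. Under Dox it was at 32.7, 42.4, 9.24 and 15.8 CPM without dTAG and 33.1, 34.5, 19.6 and 28.2 CPM with dTAG. All clones held more Svop after dTAG without Dox, whereas with Dox both C-terminal clones did, G4 hardly differed and H1 held less. The change was 0.78 ± 0.26 (limma adjusted p = 0.0526) without Dox and 0.38 ± 0.26 (limma adjusted p = 0.331) with Dox, or 0.55 and 0.14 after median-ratio scaling. A930001C03Rik was at 5.21, 4.67, 7.77 and 5.76 CPM untreated and 7.34, 6.69, 5.43 and 10.3 CPM with dTAG, in the same order of clones. In the presence of Dox it was at 8.71, 10.5, 2.82 and 3.89 CPM without and 8.30, 8.96, 8.35 and 7.27 CPM with dTAG. Its groups overlapped, and the changes were 0.29 ± 0.30 (limma adjusted p = 0.496) without and 0.45 ± 0.30 (limma adjusted p = 0.324) with Dox.

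Enpp2 was at 3.14, 2.22, 10.5 and 10.5 CPM untreated and 5.45, 3.34, 8.95 and 5.59 CPM with dTAG in METTL3 clones G4, H1, C3 and H5. With Dox it was at 10.3, 4.48, 22.4 and 15.9 CPM without and 7.28, 3.52, 19.5 and 10.6 CPM with dTAG. Without Dox the N-terminal clones held more Enpp2 after dTAG and the C-terminal clones less, whereas with Dox all 4 clones held less. The change was 0.02 ± 0.22 (limma adjusted p = 0.965) without Dox, which turned to -0.18 after median-ratio scaling, and -0.37 ± 0.22 (limma adjusted p = 0.269) with Dox. Of the 4 genes, 1 was called without Dox, where 20.3% of all genes were. With Dox 0 were called by limma, where 9.16% of all genes were, and edgeR called 1 and DESeq2 2. There 1 of the 4 (Dnah8) had an unadjusted p under 0.05 (limma), beside 4997 of 16638 genes.

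In the YTHDC1 line Enpp2 was the gene that rose. In experiment 1 Enpp2 was at 6.24 CPM untreated and 10.4 CPM with dTAG in clone Y9F, and at 5.19 and 7.56 CPM in clone Y12H. Under Dox it was at 14.2 and 21.3 CPM in Y9F and at 13.2 and 14.9 CPM in Y12H. Both clones held more Enpp2 with dTAG, and the difference was clearest in Y9F. In experiment 2 Enpp2 was at 6.36 and 11.0 CPM without and with dTAG in Y9F and at 2.04 and 4.40 CPM in Y12H. In the presence of Dox it was at 17.3 and 21.3 CPM in Y9F and at 7.13 and 10.5 CPM in Y12H. Every pair in both experiments was higher with dTAG, although the clones lay apart in experiment 2. Without Dox Enpp2 rose by 0.56 ± 0.16 in experiment 1 (limma adjusted p = 0.0257) and by 0.77 ± 0.13 in experiment 2 (limma adjusted p = 0.00029). With Dox it rose by 0.39 ± 0.13 in experiment 2 (limma adjusted p = 0.0461) and was at 0.36 ± 0.16 in experiment 1 (limma adjusted p = 0.171). In experiment 1 the call without Dox was lost when either clone was left out (limma adjusted p = 0.133 and 0.402).

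The other genes did not pass the test in the YTHDC1 line. In experiment 1 Dnah8 was at 167 and 167 CPM without and with dTAG in Y9F and at 146 and 172 CPM in Y12H, and with Dox at 135 and 140.1 CPM in Y9F and 118 and 139.5 CPM in Y12H. In experiment 2 it was at 227 and 250.4 CPM in Y9F and 255 and 279 CPM in Y12H, and with Dox at 171 and 203 CPM in Y9F and 207 and 209.7 CPM in Y12H. None of these pairs was lower with dTAG, and the changes, 0.12 to 0.14, did not pass the test in either experiment, with or without Dox (limma adjusted p = 0.175 to 0.314). Svop was at 11.1 and 13.4 CPM in Y9F and 9.42 and 13.4 CPM in Y12H in experiment 1, and with Dox at 10.9 and 14.4 CPM in Y9F and 12.1 and 15.7 CPM in Y12H. In experiment 2 Svop was at 13.9 and 15.4 CPM in Y9F and 16.03 and 14.2 CPM in Y12H, and with Dox at 13.2 and 15.9 CPM in Y9F and 13.8 and 14.9 CPM in Y12H. It was slightly higher with dTAG throughout experiment 1, at 0.36 ± 0.14 with and without Dox (limma adjusted p = 0.113 and 0.106), and in experiment 2 without Dox the clones went opposite ways.

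A930001C03Rik was at 7.18 and 7.83 CPM without and with dTAG in Y9F and 5.09 and 6.02 CPM in Y12H in experiment 1, and with Dox at 5.17 and 8.33 CPM in Y9F and 5.51 and 6.35 CPM in Y12H. In experiment 2 it was at 8.79 and 10.1 CPM in Y9F and 14.8 and 12.6 CPM in Y12H, and with Dox at 9.16 and 10.9 CPM in Y9F and 12.8 and 12.7 CPM in Y12H. It was somewhat higher with dTAG in experiment 1 and moved little in experiment 2. Its largest change was 0.39 ± 0.15, in experiment 1 with Dox (limma adjusted p = 0.111). Without Dox 1 of the 4 genes was called in each experiment, where 14.8% and 14.7% of all genes were. With Dox 1 was called in experiment 2, where 11.6% of all genes were. In experiment 1 with Dox limma called 0, where 11.8% of all genes were, and edgeR and DESeq2 called 0 as well. There 3 of the 4 had an unadjusted p under 0.05 (limma), beside 4346 of 17351 genes.

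ZCCHC8 and YTHDC1 experiment 1 share a table, so the difference between their dTAG effects could be tested. For Svop the ZCCHC8 effect was higher by 0.77 ± 0.20 without Dox (limma adjusted p = 0.011) and by 0.88 ± 0.20 with Dox (limma adjusted p = 0.00363). For Enpp2 the difference, ZCCHC8 minus YTHDC1, was -0.79 ± 0.23 without Dox (limma adjusted p = 0.0177) and -0.90 ± 0.23 with Dox (limma adjusted p = 0.0068). For Dnah8 it was -1.10 ± 0.10 without Dox (limma adjusted p = 8.41e-07) and -0.76 ± 0.10 with Dox (limma adjusted p = 3.19e-05). Svop thus rose more, and Enpp2 and Dnah8 moved lower, after loss of ZCCHC8 than after loss of YTHDC1. For A930001C03Rik the difference was 0.36 ± 0.21 without (limma adjusted p = 0.252) and 0.10 ± 0.21 with Dox (limma adjusted p = 0.756). The 3 genes called with and without Dox compare with 21.9% of all genes without Dox and 26.4% with Dox. The Svop call with Dox was lost without clone Z12H (limma adjusted p = 0.0639), and those of Svop without Dox and of Enpp2 with Dox were lost without clone Y9F (limma adjusted p = 0.11 and 0.129). The Enpp2 call without Dox was lost without Y9F, Y12H or Z12H (limma adjusted p = 0.064 to 0.15).

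**Figure D2:**
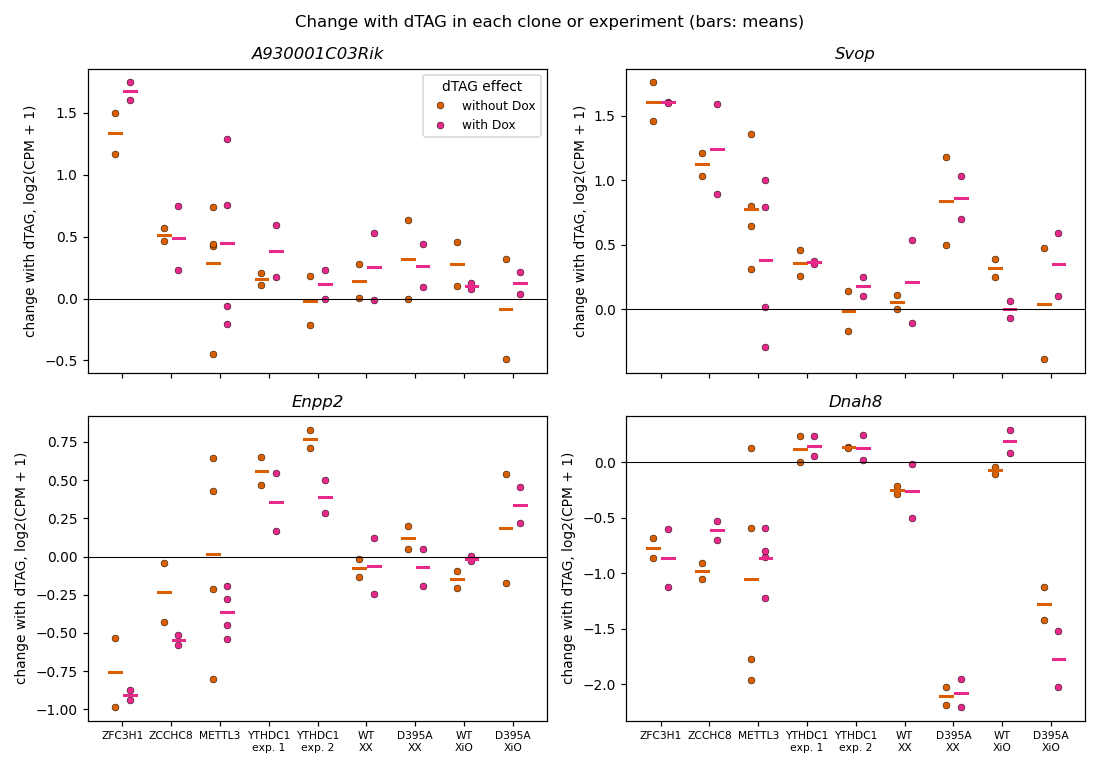
Change of log2(CPM + 1) with dTAG for each gene (panels), by line, without and with Dox; points are clones or experiments and bars are means. Svop is above 0 in the ZFC3H1 and ZCCHC8 lines, Enpp2 is above 0 in every YTHDC1 pair, and Dnah8 is lowest in the D395A XX line, with means of -2.11 and -2.08.

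In the transgene lines dTAG removes the endogenous METTL3 while the GFP-METTL3 transgene stays. Dnah8 was lower with dTAG in both D395A lines, where it passed the test once experiment was taken as a block. In D395A XX it was at 65.6 CPM untreated and 15.4 CPM with dTAG in experiment 1, and at 107 and 22.7 CPM in experiment 2. With Dox it was at 37.8 and 9.04 CPM in experiment 1 and 85.5 and 17.8 CPM in experiment 2. The libraries with dTAG were all below those without. The change was -2.11 ± 0.60 without Dox (limma adjusted p = 0.0703) and -2.08 ± 0.60 with Dox (limma adjusted p = 0.0975), the lowest of 16439 genes in both. With experiment as a block the limma adjusted p was 0.000322 without and 0.000532 with Dox. In WT XX Dnah8 was at 163 and 140.3 CPM in experiment 1 and 362 and 297 CPM in experiment 2, and with Dox at 119 and 83.3 CPM and 229.5 and 227 CPM. The experiments differed more than the treatments there. The change was -0.25 ± 0.60 without and -0.26 ± 0.60 with Dox (limma adjusted p = 1.00 in both). The D395A effect minus the WT effect was -1.86 ± 0.86 without (limma adjusted p = 0.563) and -1.82 ± 0.86 with Dox (limma adjusted p = 0.70), and with the block the adjusted p was 0.0262 and 0.0376. Without the block 0.00608% of genes were called in this difference without Dox and 0.0122% with Dox. With the block 0.213% and 0.109% were, and in D395A XX itself 8.07% without and 4.92% with Dox.

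The XiO clones gave the same order. In D395A XiO Dnah8 was at 134 and 49.5 CPM without and with dTAG in experiment 1 and 45.6 and 20.3 CPM in experiment 2, and with Dox at 154 and 37.1 CPM and 56.8 and 19.1 CPM. In WT XiO it was at 331 and 321 CPM in experiment 1 and 169 and 157 CPM in experiment 2, and with Dox at 335 and 355 CPM and 119 and 146 CPM. Every D395A XiO pair was lower with dTAG, whereas WT XiO pairs were slightly lower without Dox and slightly higher with Dox. The D395A XiO change was -1.28 ± 0.76 without (limma adjusted p = 0.578; 0.001004 with the block) and -1.78 ± 0.76 with Dox (limma adjusted p = 0.453; 0.000356 with the block). The difference from WT XiO was -1.20 ± 1.08 without and -1.96 ± 1.08 with Dox (limma adjusted p = 1.00 in both; 0.0324 and 0.00656 with the block). With the block 12.9% of all genes were called in D395A XiO without and 9.57% with Dox, and 1.40% and 0.121% in the difference.

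Svop was at 57.7 and 29.1 CPM untreated and 81.8 and 67.4 CPM with dTAG in experiments 1 and 2 of D395A XX. Under Dox it was at 42.6 and 29.7 CPM without and 69.9 and 61.8 CPM with dTAG. Libraries with dTAG lay above those without, at 0.84 ± 0.34 without (limma adjusted p = 0.188) and 0.87 ± 0.34 with Dox (limma adjusted p = 0.221). In WT XX the Svop change was 0.06 ± 0.34 without and 0.22 ± 0.34 with Dox, and in the XiO clones the Svop change was at most 0.35. A930001C03Rik and Enpp2 did not pass the test in any transgene line. Enpp2 was higher in WT XiO, at 44.2 to 75.4 CPM, than in D395A XiO, at 12.5 to 43.7 CPM, under all treatments together, a difference between single clones. The 9 embryonic stem cell markers summed to 928 to 1185 CPM in WT XiO and 1453 to 2353 CPM in D395A XiO, and their part in the Enpp2 difference was not tested. In the fit without experiment as a block, limma called 0 of the 4 genes in every dTAG contrast of the 4 transgene lines. The background was 4.85% of genes without and 2.53% with Dox in D395A XX, 0.389% and 0.0486% in D395A XiO, and 0.00% in the WT lines. In D395A XX 2 genes, Dnah8 and Svop, had an unadjusted p under 0.05 with and without Dox, beside 2655 and 3282 of 16439 genes. In D395A XiO 1, Dnah8, did with Dox, beside 1704 of 16462 genes. In the WT lines 0 did with or without Dox, beside 111 and 119 of 16439 genes (XX) and 75 and 67 of 16462 (XiO). DESeq2 called 1 gene (Dnah8) in D395A XX with and without Dox, and edgeR called 0.

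Over all 20 clone or experiment pairs, dTAG without Dox went with higher Svop in 18, higher A930001C03Rik in 16, higher Enpp2 in 9 and higher Dnah8 in 5. With Dox these numbers were 17, 16, 9 and 6. Since the ZFC3H1 pairs chose the genes, 2 of the 20 pairs are fixed in direction, and pairs of 1 clone repeat each other.

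With Dox alone Enpp2 rose and Dnah8 fell in the YTHDC1 and ZCCHC8 lines. Enpp2 was higher with Dox than untreated in 20 of 20 pairs, by 0.23 to 1.71 on the log2 scale (median 0.89). It rose by 1.14 ± 0.16 in YTHDC1 experiment 1 (limma adjusted p = 0.000114), by 1.37 ± 0.12 in experiment 2 (limma adjusted p = 3.08e-07) and by 1.32 ± 0.16 in ZCCHC8 (limma adjusted p = 2.28e-05). The change was 0.95 ± 0.22 in METTL3 (limma adjusted p = 0.073), 0.33 to 1.30 in the transgene lines, where it did not pass the test, and 0.64 in ZFC3H1, given as a description. The transgene fits given for Dox had no experiment block, so differences in level between experiments enter their error. For WT XX the rise of Enpp2 was 1.19 and 1.41 in the 2 experiments, with an SE of 0.65 in the fit. Dnah8 was lower with Dox in 16 of 20 pairs. It fell by 0.30 ± 0.07 in YTHDC1 experiment 1 (limma adjusted p = 0.0102), by 0.35 ± 0.06 in experiment 2 (limma adjusted p = 0.000931) and by 0.37 ± 0.07 in ZCCHC8 (limma adjusted p = 0.00262). Thus 2 of the 4 genes were called in each of these 3 fits, where 9.35%, 7.81% and 8.28% of all genes were. In METTL3, where 0.541% of all genes were called for Dox, and in the transgene lines, where 0.00608% (XX) and 0.923% (XiO) were with WT and 0.128% (XX) and 0.413% (XiO) with D395A, limma called 0 of the 4. Svop and A930001C03Rik were not called for Dox in any fit, with the lowest adjusted p for Svop in WT XiO (0.97 ± 0.21, limma adjusted p = 0.0757). All lines carry inducible Xist, so an effect of Dox itself and one of Xist cannot be told apart.

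**Figure D3:**
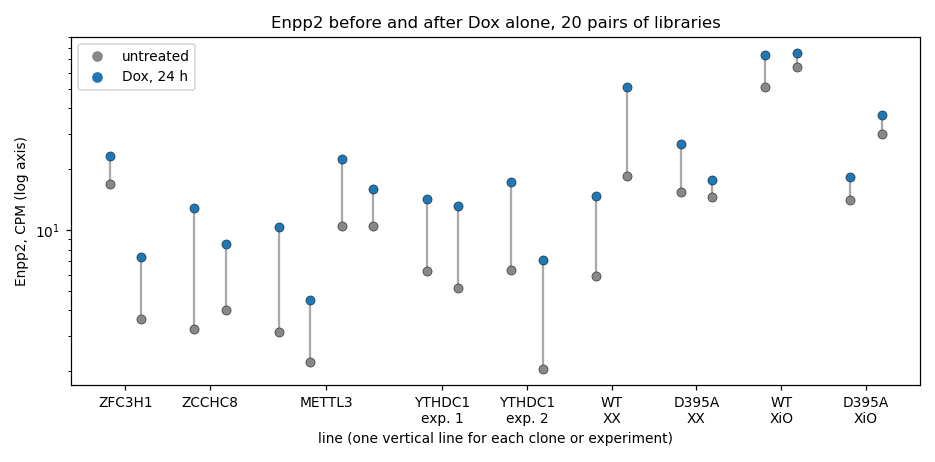
Enpp2 CPM (log axis) in the untreated and the Dox library of each of the 20 clones or experiments, joined by lines and grouped by line. All 20 lines rise, from untreated levels between 2.04 CPM in YTHDC1 clone Y12H and 63.9 CPM in WT XiO.

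Whether Dox changed the dTAG effect was tested as the effect with Dox minus the effect without it. By limma 0 genes of the 4 were called in any line tested, and 2 values had an unadjusted p under 0.05. The share of all genes called was 0.179% in ZCCHC8, 0.00576% and 0.0178% in YTHDC1 experiments 1 and 2 and 0.00% in the METTL3 and transgene lines. Of the 2 values, that of Dnah8 in ZCCHC8 was a fall smaller by 0.36 ± 0.10 under Dox (unadjusted p = 0.0021, limma adjusted p = 0.224). That of Enpp2 in YTHDC1 experiment 2 was -0.38 ± 0.18 (unadjusted p = 0.0454, limma adjusted p = 0.999). An unadjusted p under 0.05 was found for 1599 of 17351 genes in ZCCHC8 and 549 of 16857 in YTHDC1 experiment 2. In the ZFC3H1 line the largest such difference was that of A930001C03Rik, 0.34, given as a description.

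The genes beside each of the 4 were looked at next, since reads were counted over whole spans by strand. The neighbours were the 2 nearest genes on each side, 16 in all, of which 15 passed the filter. In the ZFC3H1 line 0 of the 15 were called by limma, where 1.73% of all genes were called without and 2.55% with Dox. Of the 15, 3 without and 2 with Dox had an unadjusted p under 0.05, beside 2434 and 2740 of 16605 genes. Rhod, which overlaps the start of A930001C03Rik on the other strand, was at 0.40 without and 0.27 with Dox, and Syt12, a synaptotagmin gene that overlaps the end of A930001C03Rik by 2418 bases, was at -0.29 and -0.24. 1700097N02Rik, divergent from Dnah8, was at -0.44 (limma adjusted p = 0.301) and -0.38 (limma adjusted p = 0.359). Glp1r, which encodes the GLP-1 receptor and lies downstream of Dnah8 on the same strand, was at 0.47 (limma adjusted p = 0.169) and 0.64 (limma adjusted p = 0.0557). Every neighbour tested stood closer to 0 than the gene it lies beside, and Glp1r came nearest in size with the opposite sign to Dnah8. Since the 4 genes were picked for their change in this line, that gap comes with the choice and nothing is read from it.

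In the ZCCHC8 line with Dox, where 38.3% of all genes were called, 4 of the 15 neighbours rose: Rhod by 0.44 (limma adjusted p = 0.0452), Syt12 by 0.41 (limma adjusted p = 0.03), Dao, a D-amino acid oxidase gene beside Svop, by 0.67 (limma adjusted p = 0.0016), and Glo1, the glyoxalase gene upstream of Dnah8, by 0.28 (limma adjusted p = 0.0116). Without Dox, where 33.2% were called, 1 fell, the slingshot phosphatase gene Ssh1 beside Svop, by 0.22 (limma adjusted p = 0.039). In the METTL3 line 2 neighbours rose and 2 fell without Dox, where 20.3% of all genes were called, and 1 rose and 1 fell with Dox, where 9.16% were. 1700097N02Rik fell, as Dnah8 did without Dox, by 0.47 without Dox (limma adjusted p = 0.034) and by 0.50 with Dox (limma adjusted p = 0.0435). Dscc1, a cohesion factor gene near Enpp2, fell by 0.63 without Dox (limma adjusted p = 0.00893). Glo1 rose by 0.47 without Dox (limma adjusted p = 0.0379), and Syt12 by 0.82 without and 0.85 with Dox (limma adjusted p = 0.00595 and 0.0126). Syt12 also rose in D395A XX, by 1.40 and 1.23 (limma adjusted p = 0.00343 and 0.00792), the 1 neighbour of 15 called there. In D395A XX 4.85% of all genes were called without and 2.53% with Dox. Levels of some neighbours were low, with medians of 0.712 CPM for Dao, 0.995 for Syt12 and 1.94 for 1700097N02Rik.

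**Figure D4:**
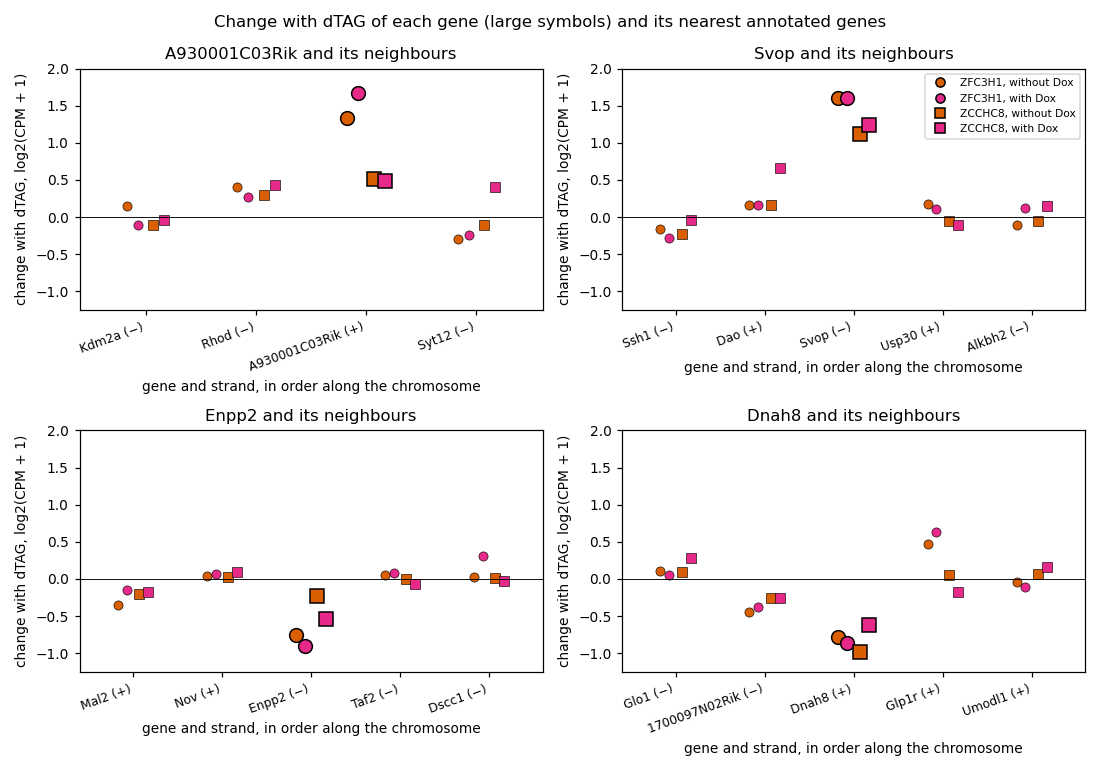
Change of log2(CPM + 1) with dTAG for each gene (large symbols) and its nearest annotated genes in chromosome order with their strands; circles are ZFC3H1, squares ZCCHC8, orange without and pink with Dox. The 4 genes, picked for their change in the ZFC3H1 line, stand farther from 0 there than their neighbours, which comes with that choice. Of the neighbours 0 were called there, where 1.73% of all genes were called without and 2.55% with Dox.

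The genes most like each of the 4 were sought by Pearson's r of the log2(CPM + 1) changes with dTAG over 40 pairs of libraries, among 13690 genes. Pairs of the same clone share depth and clone, so r is a description. For A930001C03Rik these were Klhl26 (r = 0.84), Svop (r = 0.83) and Tmem127 (r = 0.82), and for Svop they were A930001C03Rik (r = 0.83), Klhl26 (r = 0.81) and Srr (r = 0.79). For Enpp2 they were Foxp1 (r = 0.87), Dcun1d2 (r = 0.75) and Fstl1 (r = 0.73), and for Dnah8 Helb (r = 0.86), Lamc1 (r = 0.86) and Slc12a8 (r = 0.85). Without the ZFC3H1 pairs, which leaves 36, Klhl26 (r = 0.83), P2rx7 (r = 0.81) and Lzic (r = 0.78) were most like A930001C03Rik, and Phc2 (r = 0.82), Zfp251 (r = 0.79) and Tab1 (r = 0.78) most like Svop. A930001C03Rik and Svop still had r = 0.73 with each other. Foxp1 (r = 0.82), Alk (r = 0.72) and Fstl1 (r = 0.72) were then most like Enpp2, and Kat2b (r = 0.88), Hmces (r = 0.87) and Lamc1 (r = 0.87) most like Dnah8. Of the 3 genes named first, 1 for A930001C03Rik, 0 for Svop, 2 for Enpp2 and 1 for Dnah8 were named again. The 2 genes that were lower in the ZFC3H1 line, Enpp2 and Dnah8, had only r = 0.28 with each other, and 0.32 without the ZFC3H1 pairs.

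Genes of the same families and pathways were set beside the 4. Of 14 axonemal dynein genes tested in the ZFC3H1 line limma called 0 without Dox (1.73% of all genes called). With Dox (2.55%) 1 rose, Dnaic1, an intermediate chain, by 0.86 (limma adjusted p = 0.0164). An unadjusted p under 0.05 was found for 3 without and 4 with Dox, beside 2434 and 2740 of 16605 genes. In the ZCCHC8 line 7 of 15 rose and 1 fell without Dox, where 33.2% of all genes were called, and 8 rose and 1 fell with Dox, where 38.3% were. The median change of the dyneins there was 0.30 without and 0.39 with Dox, beside 0.03 and 0.08 over all genes, while Dnah8 fell. Dnah17, another sperm heavy chain, rose by 0.50 and 0.39 in ZCCHC8. Dnah7a fell by 1.29 without and 0.88 with Dox in METTL3, and by 0.30 and 0.31 in ZCCHC8. In YTHDC1 experiment 1, 2 of 15 dyneins rose and 2 fell both without and with Dox (14.8% and 11.8% of all genes), Dnah11 rising by 0.85 and 0.75 and Dnah17 falling by 0.50 and 0.47.

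Of 11 genes of autotaxin relatives, lysophosphatidic acid receptors and phosphatases, limma called 0 in the ZFC3H1 line. There 1.73% of all genes were called without and 2.55% with Dox. An unadjusted p under 0.05 was found for 1 of the 11 without Dox and 0 with Dox, beside 2434 and 2740 of 16605 genes. In the ZCCHC8 line 3 of 11 rose and 0 fell without Dox (33.2% of all genes called), and 3 rose and 1 fell with Dox (38.3%), the receptor gene Lpar6 rising by 0.77 and 0.88. In YTHDC1 experiment 1, 4 of 11 rose and 1 fell without Dox (14.8% of all genes called) and 3 rose and 1 fell with Dox (11.8%). Enpp3, a relative of autotaxin that acts on nucleotides, rose with Enpp2 there, by 0.59 and 0.57, and by 0.68 and 0.66 in experiment 2. In METTL3 it fell by 0.74 and 0.61. Of 15 synaptic vesicle genes tested in the ZFC3H1 line, 1 rose without and with Dox, Vamp2, the vesicle SNARE synaptobrevin, by 1.09 (limma adjusted p = 0.00883) and 1.08 (limma adjusted p = 0.00809). Of the same 15, 7 without and 5 with Dox had an unadjusted p under 0.05 (limma), beside 2434 and 2740 of 16605 genes. In ZCCHC8 5 of 16 rose without Dox (33.2% of all genes called), and 8 rose and 3 fell with Dox (38.3%), the vesicle protein gene Sv2c rising by 0.61 and 0.25. Vamp2 was named after its values were seen, being the only gene of its list called there. Svopl, a relative of Svop, rose by 0.48 in ZCCHC8 with Dox and fell by 0.40 in METTL3 with Dox. The median change of these genes in ZFC3H1 was 0.24 without and 0.07 with Dox, beside 0.00 and 0.01 over all genes. In METTL3 0 rose and 1 fell both without and with Dox, where 20.3% and 9.16% of all genes were called.

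The snoRNA host genes, whose spliced RNAs are known nuclear targets of PAXT, were mostly not called in the ZFC3H1 line. Of the 13 in the tables limma called 0 without Dox and 1 with Dox, Snhg4, which rose by 0.53 (limma adjusted p = 0.0392). An unadjusted p under 0.05 was found for 0 without and 3 with Dox, beside 2434 and 2740 of 16605 genes. The median change of the 13 was -0.04 without and 0.24 with Dox, beside -0.0026 and 0.0075 over all genes. In ZCCHC8 Snhg4 rose by 0.53 and 0.77 and Snhg3 by 0.28 and 0.43. Of 8 PAXT and NEXT subunit genes limma called 0 in ZFC3H1. There 2 without and 1 with Dox had an unadjusted p under 0.05, beside 2434 and 2740 of 16605 genes. In ZCCHC8 Pabpn1, the nuclear poly(A) binding protein gene, fell by 0.35 without and 0.50 with Dox. In ZFC3H1 each list had 0 or 1 gene called, where 1.73% of all genes were called without and 2.55% with Dox. With so few genes called, counts in lists of this size say little about the families.

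Markers of other cell types were measured beside these changes. The 10 feeder fibroblast markers summed to 23.7 to 59.0 CPM without and 29.3 to 62.8 CPM with dTAG in the ZFC3H1 line, where Lum was listed at 0 in most libraries. The 5 neuronal markers, of which Snap25 and Syt1 are also synaptic vesicle genes, summed there to 259 to 295 CPM untreated and 319 to 376 CPM with dTAG, and to 251 to 288 CPM with Dox and 306 to 323 CPM with dTAG and Dox. They were thus higher with dTAG, as Svop was, and their part in the result was not tested. In other lines the neuronal sum and Svop moved alike in some and not in others. Both were higher with dTAG without Dox in METTL3, YTHDC1 experiment 1 and D395A XX. The log2 change of the sum was 0.57, 0.22, 0.60 and 0.33 in METTL3 clones G4, H1, C3 and H5, where Svop was at 0.78. For YTHDC1 experiment 1 it was 0.47 and 0.34, where Svop was at 0.36, and for D395A XX 0.87 and 0.52, where Svop was at 0.84. Without Dox the log2 change of the sum was 0.19 and 0.06 in the ZCCHC8 clones, where Svop rose by 1.12, and 0.25 and 0.34 in YTHDC1 experiment 2, where Svop was at -0.01. In D395A XiO it was 0.56 and 0.47 in the 2 experiments, where Svop was at 0.04. In D395A XX the neuronal sum went from 173 to 234 CPM untreated to 317.5 to 337 CPM with dTAG. The sum of the 9 embryonic stem cell markers was lower there, at 1888 to 1939 CPM untreated and 1446 to 1536 CPM with dTAG. The 6 primitive endoderm markers were higher, at 15.99 to 17.6 CPM untreated and 22.4 to 23.0 CPM with dTAG, and at 19.04 to 21.7 CPM with Dox and 31.3 to 34.7 CPM with dTAG and Dox. The part of these markers in the D395A XX results was not tested. In the ZCCHC8 line the 5 markers of 2-cell-like cells summed to 9.50 to 18.6 CPM untreated and 34.0 to 67.8 CPM with dTAG, and to 9.26 to 19.7 CPM with Dox and 47.7 to 81.7 CPM with dTAG and Dox. Their part in the ZCCHC8 results was not tested. In the ZFC3H1 line these markers summed to 0.0518 to 1.18 CPM. Markers of ciliated cells, which use axonemal dyneins, summed to 21.1 to 38.9 CPM over the ZFC3H1 libraries, with overlap between libraries with and without dTAG.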

How the data were processed

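ChrRNA-seq was performed by the authors in 80 libraries. Per the labels and methods, rRNA reads were removed with bowtie2, the rest were aligned with STAR to an N-masked mm10 genome, unique alignments were counted on the sense strand over transcript spans with featureCounts, and the deposited CPM values were made with edgeR. Allelic ratio tables were not used here, nor were 12 expression columns that match no sample.

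From the CPM, log2(CPM + 1) was tested per table with limma 3.58.1 (R 4.3.3, two-sided, Benjamini-Hochberg over all genes averaging 0.1 CPM or more) and called at an adjusted p under 0.05. In the degron lines the model included the clone. In every library 100% of values came out as whole reads (tolerance 0.0001 CPM), on which edgeR 4.0.16 and DESeq2 1.42.0 were run as alternatives. The wells of a replicate were split from the same cells per the methods, and the clone, a cell line of its own, pairs the degron libraries. Deviations of same-numbered libraries from their group means correlated outside METTL3 (r = 0.813 to 0.903 in ZFC3H1, 0.319 to 0.604 in ZCCHC8, 0.182 to 0.796 in YTHDC1, 0.419 to 0.915 in the transgene lines). In METTL3 r was -0.176 to 0.853 for the same clone and -0.849 to 0.718 for different clones. These ranges overlap, so for METTL3 the check does not decide the pairing. Of 56 replicate pairs 0 were identical. RefSeq names matched 22428 of the 22556 genes.

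The fits were tested on simulated data. The 4 genes and the gene lists were chosen with earlier results of these data known. Beside the 4 genes, the text names their 2 nearest genes on each side, the 3 genes most like each (mean over 1 CPM) and, per list, at most 4 genes called in the most lines.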

Additional observations from a re-analysis of the deposited data

Results flagged for a closer look

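The dTAG effects of ZCCHC8 and YTHDC1 (experiment 1) differed, by the test of the difference within their shared table, for 3 of the 4 genes. Of all genes, 26.4% were called in this difference with Dox and 21.9% without Dox. Without clone as a block, limma lost the calls of Enpp2, of Dnah8 with Dox and of Svop without Dox. For Svop the difference, ZCCHC8 minus YTHDC1 in log2(CPM + 1), was 0.88 with Dox (limma adjusted p = 0.00363) and 0.77 without Dox (limma adjusted p = 0.011). For Enpp2 it was -0.90 with Dox (limma adjusted p = 0.0068) and -0.79 without Dox (limma adjusted p = 0.0177). For Dnah8 it was -0.76 with Dox (limma adjusted p = 3.19e-05) and -1.10 without Dox (limma adjusted p = 8.41e-07).

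Enpp2 was lower with dTAG in both ZFC3H1 clones and higher with dTAG in both YTHDC1 clones. Dnah8 was lower in both ZFC3H1 clones and changed little in YTHDC1, by 0.12 to 0.14, which did not pass the test. The differences between these lines were not tested, because the tables were scaled separately and the ZFC3H1 values chose the genes. For Enpp2 the mean changes lay apart by 1.32 (experiment 1) and 1.53 (experiment 2) without Dox, and by 1.27 and 1.30 with Dox, on the log2 scale. For Dnah8 they lay apart by 0.89 and 0.91 without Dox and by 1.01 and 1.00 with Dox. Groups of 4 libraries exist only in the METTL3 line, and of 16 such groups examined 0 held a library far from the others. The ZFC3H1 and YTHDC1 groups, of 2 libraries each, were not examined in this way.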

How the results depend on the processing

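Of the log2 changes, 635 values under another setting kept their direction and side of the threshold. The rest follow, as log2 changes unless said otherwise, and the cause was not tested.

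The replicate block decided several calls. Without clone as a block, calls were lost for Dnah8 in METTL3 without Dox (-1.05, adjusted p = 0.278), Enpp2 in YTHDC1 experiment 1 (0.56, adjusted p = 0.198) and experiment 2 (0.77, adjusted p = 0.756) without Dox and in experiment 2 with Dox (0.39, adjusted p = 0.948), A930001C03Rik in ZCCHC8 with Dox (0.49, adjusted p = 0.131) and without (0.52, adjusted p = 0.131), and Enpp2 in ZCCHC8 with Dox (-0.55, adjusted p = 0.0883), all by limma. In the ZCCHC8 minus YTHDC1 difference they were lost for Enpp2 (-0.90 with, -0.79 without Dox), Dnah8 with Dox (-0.76) and Svop without Dox (0.77). Genes called of the 4 then numbered 2 in ZCCHC8 with Dox, 1 in the difference with and without Dox, and 0 in METTL3 without Dox, YTHDC1 experiment 1 without Dox and experiment 2 with and without Dox. With experiment as a replicate block in the transgene lines, 1 gene (Dnah8) was called in D395A XX, in D395A XiO and in both differences from WT, with and without Dox, where 4.92% and 8.07%, 9.57% and 12.9%, and 0.109% and 0.213% (XX difference) and 0.121% and 1.40% (XiO difference) of all genes were.

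In a fit of only the groups compared, all 4 genes were called in YTHDC1 experiment 1 with Dox (A930001C03Rik 0.39, Svop 0.36, Enpp2 0.36, Dnah8 0.14). There 5226 of all genes were called, against 2048 in the main fit. The same kind of fit called 2 in METTL3 without Dox (Svop 0.78, limma adjusted p = 0.0272), and 2 and 1 in D395A XX with and without Dox. Of all genes it called 1867 in D395A XX without Dox, against 798 in the main fit. Over all settings at most 881 were called in D395A XX with Dox and 3477 in METTL3 without Dox. With all genes above 0 tested, Enpp2 lost its call in YTHDC1 experiment 1 without Dox (0.56, 0 called) and experiment 2 with Dox (0.39, 0 called), and in the difference without Dox (-0.79). With a pseudocount of 0.25 CPM it lost it in experiment 2 with Dox (0.42, 0 called). DESeq2 lost that call too (0.42, 0 called) and that of A930001C03Rik in ZCCHC8 with Dox (0.43), and called 1 gene in D395A XX with and without Dox. In METTL3 with Dox, Dnah8 was called after median-ratio scaling (-1.12), by edgeR (-1.12) and by DESeq2 (-1.15), for 1, 1 and 2 genes, the other being Enpp2 (-0.69). In ZFC3H1 with Dox, edgeR and DESeq2 gave 1.79 and 1.79 for A930001C03Rik, 1.64 and 1.63 for Svop and -1.04 and -1.05 for Enpp2, a pseudocount of 0.25 CPM gave 1.64 for Svop and -0.997 for Enpp2, and median-ratio scaling gave 1.60 for Svop.

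Changes near 0 turned direction under median-ratio scaling, edgeR and DESeq2 for Enpp2 in METTL3 without Dox (-0.18, -0.20, -0.24) and in D395A XX without Dox (-0.00964, -0.013, -0.024), and for Svop in D395A XiO without Dox (-0.086, -0.12, -0.11). They did so under scaling for Svop in YTHDC1 experiment 2 without Dox (0.0023), by edgeR and DESeq2 for A930001C03Rik in D395A XiO with Dox (-0.011, -0.020), and by edgeR for A930001C03Rik in METTL3 with Dox alone (0.047).

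Leaving out each clone or experiment in turn gave 0.59 to 0.94 for Svop in METTL3 without Dox (called without C3, limma adjusted p = 0.0422), -0.19 to 0.29 for Enpp2 there, and -1.45 to -0.75 for Dnah8 there, with 0 to 1 gene called. It gave 0.47 to 0.65 for Enpp2 in YTHDC1 experiment 1 without Dox (0 called), 0.23 to 0.75 for A930001C03Rik in ZCCHC8 with Dox and 0.46 to 0.57 without. In the difference it gave -0.15 to 0.36 for A930001C03Rik with Dox, 0.53 to 1.23 for Svop with and 0.66 to 0.87 without Dox, and -1.09 to -0.71 for Enpp2 with and -0.99 to -0.60 without Dox (1 to 3 called without Dox). In ZCCHC8 and YTHDC1 experiment 1 the single clone left is assumed to vary like the other line in the table. In YTHDC1 experiment 2, where 1 clone is left and no test can be made, it gave -0.0025 to 0.23 and -0.22 to 0.18 for A930001C03Rik with and without Dox and -0.17 to 0.14 for Svop without. In the transgene lines with Dox it gave -0.0088 to 0.53 for A930001C03Rik, -0.10 to 0.53 for Svop and -0.24 to 0.12 for Enpp2 in WT XX, -0.19 to 0.050 for Enpp2 in D395A XX, and -0.070 to 0.067 for Svop and -0.029 to 0.0012 for Enpp2 in WT XiO. Without Dox it gave -0.0011 to 0.63 for A930001C03Rik in D395A XX, and -0.49 to 0.32, -0.39 to 0.47 and -0.17 to 0.54 for A930001C03Rik, Svop and Enpp2 in D395A XiO.

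Over all genes, the number called in ZFC3H1 was 423 with and 288 without Dox, with 0 in both without clone as a block and 2367 and 990 in a fit of only the groups compared. In the other fits the counts, with their range, were METTL3 1524 (0 to 1662) with and 3370 (851 to 3477) without Dox, YTHDC1 experiment 1 2048 (300 to 5226) and 2572 (338 to 2667), ZCCHC8 6649 (3718 to 7023) and 5758 (3134 to 7021), the ZCCHC8 minus YTHDC1 difference 4576 (2314 to 4764) and 3805 (1693 to 3814), YTHDC1 experiment 2 1958 (7 to 3210) and 2476 (28 to 2688), D395A XX 416 (0 to 881) and 798 (0 to 1867), D395A XiO 8 (0 to 1576) and 64 (0 to 2127), the difference of D395A from WT 2 (0 to 101) and 1 (0 to 169) in XX and 0 (0 to 20) and 0 (0 to 230) in XiO. With 2 clones or experiments per group, their number limits the precision.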
